A study of Mus musculus with 2 samples.

Results

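The CREB3 family comprises transcription factors of the endoplasmic reticulum membrane, and its 5 mouse genes (Creb3, Creb3l1, Creb3l2, Creb3l3 and Creb3l4) were followed here by name. Of the 5 genes, 4 had a row among the 18724 of the table, and all 4 passed the minimum mean normalised count of 10 that 17183 genes passed. Creb3l3 had no row and its level was not analysed here. The data were 1 library of label-retaining (GFP-positive) and 1 library of non-retaining (GFP-negative) cells. Both were sorted as luminal epithelial cells from mouse prostate at 18 weeks of age. By the study's title the label was histone 2B fused to GFP, which cells lose as they divide. The strain, the driver of the label, the number of mice behind each library and the sort markers were not given in the sources used here. Both libraries were prepared from total RNA with a stranded kit.

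Proteins of this family carry a basic leucine zipper (bZIP) for DNA binding and dimer formation, followed by a stretch that anchors them in the membrane of the endoplasmic reticulum. When the protein moves to the Golgi, site-1 protease and then site-2 protease cut it and free the part that enters the nucleus, as they do with ATF6. The members are known as regulators of secretory capacity: Creb3 (Luman) in the Golgi and endoplasmic reticulum stress responses, Creb3l1 (OASIS) in bone-forming cells and in collagen production, Creb3l2 (BBF2H7) in cartilage secretion, Creb3l3 (CREB-H) in liver and gut lipid metabolism, and Creb3l4 (AIbZIP) as an androgen-induced factor of prostate cells.

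What the 5 genes share in sequence is shown by the 75 coding bases of each that encode the core of the basic region and the start of the leucine zipper. They were read 5′ to 3′ on the coding strand from GENCODE release M21 transcripts (GRCm38), and capitals mark the 37 bases that are the same in all 5 genes.
Creb3: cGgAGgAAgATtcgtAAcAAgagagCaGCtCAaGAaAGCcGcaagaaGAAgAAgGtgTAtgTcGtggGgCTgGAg
Creb3l1: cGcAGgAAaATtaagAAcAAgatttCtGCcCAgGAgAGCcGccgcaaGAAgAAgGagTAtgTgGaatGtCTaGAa
Creb3l2: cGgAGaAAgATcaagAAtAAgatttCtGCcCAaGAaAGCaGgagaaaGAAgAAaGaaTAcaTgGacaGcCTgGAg
Creb3l3: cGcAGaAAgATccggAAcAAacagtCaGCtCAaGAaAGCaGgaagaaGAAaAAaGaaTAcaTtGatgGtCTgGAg
Creb3l4: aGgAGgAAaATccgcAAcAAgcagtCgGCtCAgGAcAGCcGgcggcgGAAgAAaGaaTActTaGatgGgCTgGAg

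The stretch lay in exon 5 of 9 of Creb3 (chr4:43565288-43565362, plus strand), in exon 8 of 12 of Creb3l3 (chr10:81088515-81088589, minus strand) and in exon 6 of 10 of Creb3l4 (chr3:90238650-90238724, minus strand). In Creb3l1 (chr2:91990914-91991146) and Creb3l2 (chr6:37354756-37355663), both on the minus strand, it was split by an intron between exons 6 and 7 of 12. Of its 25 codons, 15 gave the same amino acid in all 5 genes. Creb3l1 and Creb3l2 were the pair with the most shared residues, 22 of 25 in this stretch and 48 of 60 when the comparison was carried on, without gaps, into the zipper. Creb3l1 and Creb3l4 shared the fewest over that longer window, 30 of 60. The most hydrophobic run of 19 residues lay after the bZIP in every member, at residues 238 to 256 of 379 in Creb3, 376 to 394 of 520 in Creb3l1, 377 to 395 of 521 in Creb3l2, 317 to 335 of 479 in Creb3l3 and 272 to 290 of 370 in Creb3l4. Creb3l4 thus had the shortest part behind it, 80 residues, against 123 to 144 in the others. An arginine followed at the third residue by leucine (RxxL), a pattern that site-1 protease can cut, occurred behind the hydrophobic run 2 times in Creb3l1, 1 time in Creb3l2, 3 times in Creb3l3, 1 time in Creb3l4 and 0 times in Creb3. These letters describe the sequences and were not tested for cleavage.

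All 4 measured members had more RNA in the label-retaining than in the non-retaining library under the deposited scaling. Creb3, Creb3l1 and Creb3l4 were about 2-fold higher, whereas Creb3l2 was 1.31-fold higher. Genes were called higher or lower by size when the ratio of normalised counts was at least 2-fold and its 95% counting interval excluded equality. By that rule 3 members were higher and 0 lower, in a table where 14.5% of measured genes were called higher and 19.4% lower. With 1 library per group there was no replicate check, no test was run, and each interval covers counting error alone. In sorted populations, fewer cells that express a gene and less RNA per cell cannot be told apart.

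Creb3, the founding member, had 2671 reads among label-retaining and 1430 among non-retaining cells (ENSMUSG00000028466.14, chr4:43562332-43567060, plus strand, mm10). These were 2665 (95% counting interval 2565 to 2768) and 1301 (1234 to 1370.0) normalised counts. The intervals did not overlap, and the log2 ratio was 1.03 (0.94 to 1.13). In the annotation its exons shared 360 bases (15.2% of Creb3 exon bases) with Tln1, which encodes the adhesion protein talin, and 133 bases (5.61%) with Gba2, both on the opposite strand. Tln1 went the other way, with 11149 against 26888 reads (log2 ratio -1.14), and Gba2 had 263 against 345 (-0.26). Whether strand was used in counting was not given in the sources used here, and the part of these neighbours in the Creb3 value was not tested.

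Creb3l1, the member tied to collagen secretion, had 1032 reads against 543 (ENSMUSG00000027230.9, chr2:91982328-92024502, minus strand). The corresponding normalised counts were 1029.8 (968 to 1095) in the label-retaining and 494 (453 to 537) in the non-retaining library. The intervals were apart, with a log2 ratio of 1.06 (0.91 to 1.21). No exon of another annotated gene overlapped those of Creb3l1, Creb3l2 or Creb3l4.

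Creb3l2, the closest relative of Creb3l1 in sequence, had the most reads of the family, 4308 against 3615 (ENSMUSG00000038648.5, chr6:37327255-37442146, minus strand). Its normalised counts were 4299 (4171 to 4429) and 3288 (3182 to 3397), so that the label-retaining library was again higher beyond counting error. The log2 ratio was 0.39 (0.32 to 0.45), below the size rule. This interval lay below those of the other members, and the log2 ratio of Creb3l2 was lower than that of Creb3 by 0.65, of Creb3l1 by 0.67 and of Creb3l4 by 0.73. The intervals of Creb3, Creb3l1 and Creb3l4 overlapped one another.

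Creb3l4, the androgen-induced member, was the scarcest, with 155 reads against 78 (ENSMUSG00000027938.10, chr3:90237500-90243512, minus strand). Its normalised counts were 155 (131 to 181) and 71.0 (56.1 to 88.6). The log2 ratio of 1.12 had the widest interval of the family, 0.72 to 1.54, so that its size relative to Creb3 and Creb3l1 could not be resolved at this depth.

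**Figure D1:**
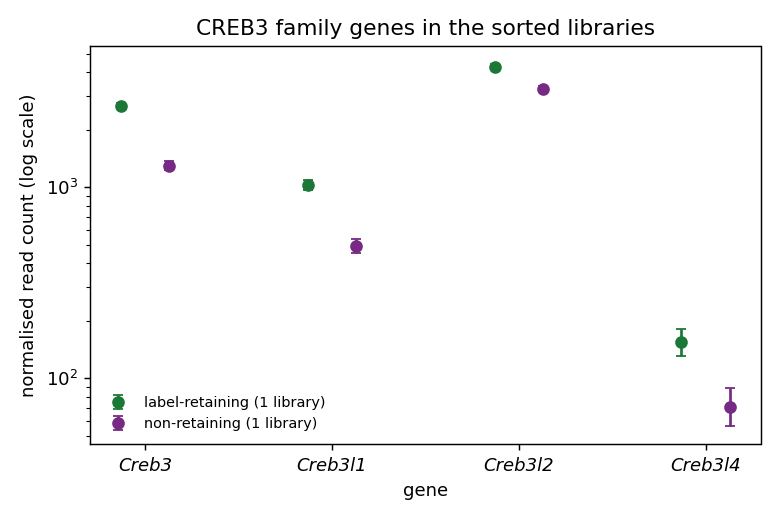
Normalised read count (log axis) of the 4 measured CREB3 family genes in the label-retaining library (green) and the non-retaining library (purple), with bars for the exact 95% Poisson counting interval and 1 library per group. The green point is above the purple one for each gene, by about 2-fold for Creb3, Creb3l1 and Creb3l4 and by 1.31-fold for Creb3l2.

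The size of these ratios depended on how the libraries were scaled, and the calls near 2-fold with it. Under TMM factors and under median-of-ratios factors from these libraries alone, the same 3 members were called higher. Scaled to total reads, every ratio moved down by 0.20 and 0 members were called, with Creb3 at 0.83, Creb3l1 at 0.86, Creb3l4 at 0.92 and Creb3l2 at 0.18. The median of all measured genes moved from -0.0052 to -0.21, and 11.3% of genes were then higher and 23.1% lower. The keratin scaling set the mean log2 ratio of the luminal keratins Krt8 and Krt18 to equality between the libraries. Every ratio then moved down by 0.76 and 0 members were called. Creb3 stood at 0.27, Creb3l1 at 0.30 and Creb3l4 at 0.36 with an interval (-0.04 to 0.77) that held equality, whereas Creb3l2 turned to -0.38. The background under the keratin scaling was 5.59% higher and 39.9% lower, with a median of -0.77. A scaling moves all genes alike and leaves their order as it is. Under the deposited scaling the ratio of Creb3 exceeded that of 85.8% of measured genes, that of Creb3l1 86.2%, that of Creb3l4 87.3% and that of Creb3l2 67.1%.

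**Figure D2:**
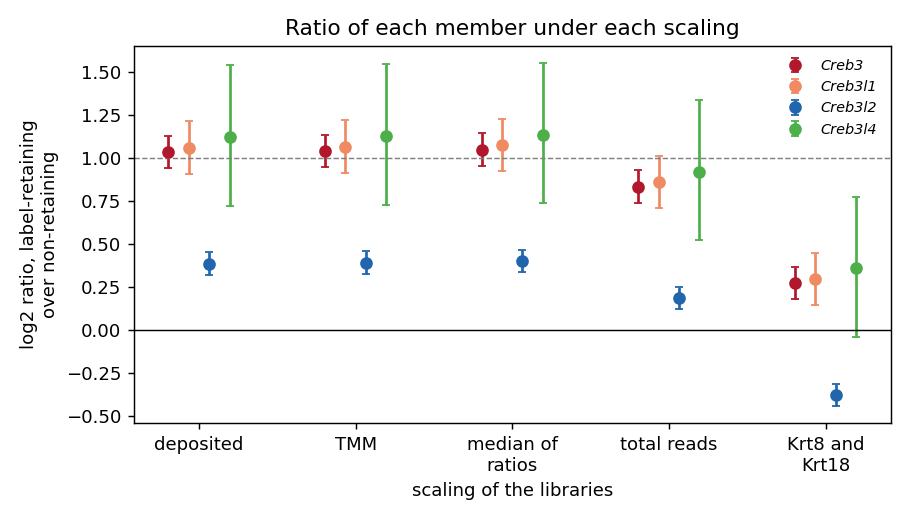
Log2 ratio (label-retaining over non-retaining) of the 4 measured members under 5 scalings of the libraries, with bars for the 95% counting interval, a solid line at equality and a dashed line at 2-fold. Creb3l2 lies lowest under each scaling, and under the keratin scaling its value is -0.38.

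Between genes, levels were compared per kilobase of summed exon length. Creb3 had the highest level of the family in both libraries, 1124 normalised counts per kilobase against 548, the label-retaining value first. Creb3l2 followed with 590.3 and 452, then Creb3l1 with 396 and 189.8, and Creb3l4 with 92.1 and 42.3. The order was the same in both libraries. Creb3 made up 51.0% of the summed family level in the label-retaining library against 44.5% in the non-retaining one, and Creb3l2 26.8% against 36.7%. Creb3l1 held 18.0% against 15.4% and Creb3l4 4.18% against 3.43%. The summed level was 2202 and 1232 per kilobase, a 1.79-fold difference. Among 14417 measured protein-coding genes, the level of Creb3 lay at percentile 89.5 against 78.9, again with the label-retaining value first. Creb3l2 lay at 79.8 and 74.9, Creb3l1 at 71.6 and 54.9, and Creb3l4 at 41.6 and 26.5.

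The family was set among related transcription factors of the nuclear CREB and ATF group, the ATF6 and SREBP genes, and Xbp1, 19 genes in all. Per kilobase, Creb3 ranked 5 among label-retaining and 7 among non-retaining levels, Creb3l2 10 and 12, Creb3l1 12 and 16, and Creb3l4 18 in both. The genes named from here to the end of this paragraph were chosen for their places in that order, after the values were seen. Atf3 (44388 and 43197 per kilobase) and Atf4 (20290.0 and 17333), stress-induced nuclear factors, were far above every member. Next to Creb3 in the label-retaining library stood Srebf1 (1119 per kilobase), the factor of fatty acid synthesis, and Atf6b (1108), both close to it. Their places relative to Creb3 can thus not be separated, since length and annotation add to the counting error.

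**Figure D3:**
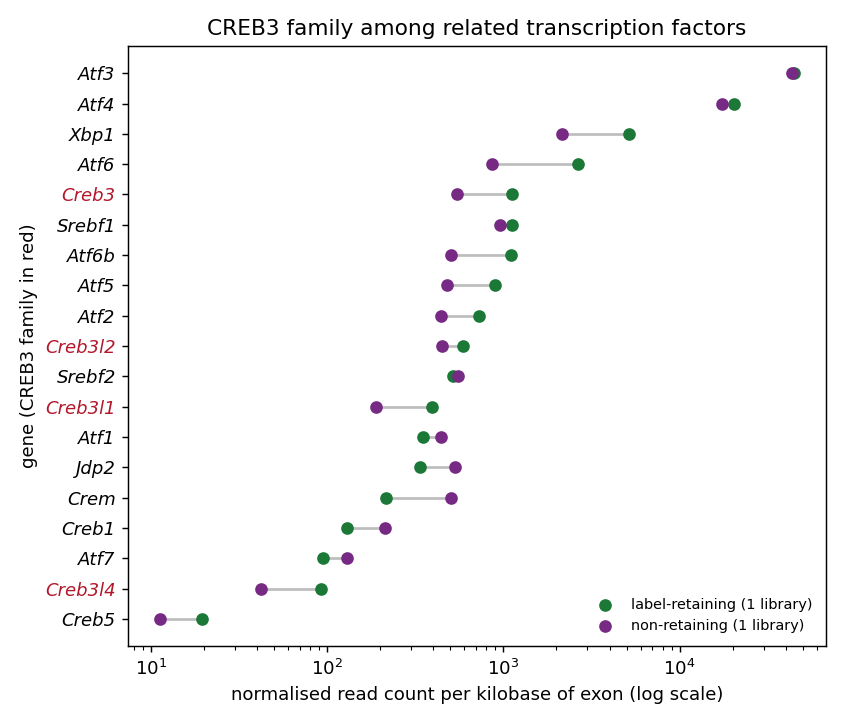
Normalised read count per kilobase of exon (log axis) of 19 related transcription factor genes in the label-retaining (green) and non-retaining (purple) library, ordered by the label-retaining level, with the CREB3 family in red. The members run from Creb3 at rank 5 down to Creb3l4 at rank 18 in the label-retaining library.

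Under the deposited scaling, the cleavage machinery that releases these factors differed less between the libraries than Creb3, Creb3l1 or Creb3l4. Mbtps1, which encodes site-1 protease, had 10554 normalised counts against 7495 (log2 ratio 0.49, 0.45 to 0.54). Mbtps2, which encodes site-2 protease, had 497 against 337 (0.56, 0.36 to 0.76). Both were higher among label-retaining cells beyond counting error but under 2-fold, and the interval of Mbtps2 overlapped that of Creb3l4. The keratin scaling, with its shift of -0.76, put both protease genes below equality.

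The other membrane-bound substrates of these proteases split by kind. Atf6, the stress sensor of the endoplasmic reticulum, had 24614 against 8009 normalised counts (1.62, 1.58 to 1.66), and its relative Atf6b had 3056 against 1391 (1.14, 1.05 to 1.22). Both were called higher. Srebf1 (0.22) and Srebf2, the factor of cholesterol synthesis (-0.10), were not called. Their escort Scap was at 0.44, the retention factor Insig2 at 0.06 with an interval that held equality (-0.11 to 0.23), and Insig1, a sterol-responsive retention factor, at -0.81. In this list of 9 genes the size rule called 2 higher and 0 lower, beside 14.5% and 19.4% of all measured genes. The median was 0.44 against -0.0052 for all measured genes. Under the total-read scaling 1 was higher (Atf6) and 1 lower (Insig1), beside 11.3% and 23.1% of all measured genes. Under the keratin scaling the counts were 0 and 1, beside 5.59% and 39.9%.

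Partners and regulators of the family did not move one way. The size rule called 3 of 8 measured genes higher and 1 lower, beside 14.5% and 19.4% of all measured genes, and the median was -0.22. Tm4sf20, whose product governs how Creb3l1 sits in the membrane, had no row. Syvn1, which encodes the ubiquitin ligase HRD1 that acts on Creb3l1 and Creb3l2, had 12207 against 2732 normalised counts (log2 ratio 2.16), and its cofactor Sel1l 16450.2 against 5251 (1.65, 1.60 to 1.69). Both also belong to the general degradation of misfolded proteins. Fbxw7, the recognition subunit of another ligase for the same factors, was at -0.52 (-0.62 to -0.43).

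The host cell factor genes differed from each other. Hcfc1, whose product binds Creb3, had 4183 against 4990.4 normalised counts (-0.25, -0.31 to -0.20). Its paralog Hcfc2 had 2035 against 804 (1.34, 1.22 to 1.45) and was called higher. Crebzf (Zhangfei), a bZIP protein that also binds host cell factor, was at -0.34 and Crebrf, the Luman recruitment factor that represses Creb3, at -0.18, both under the size rule. Dcstamp, a membrane partner of Creb3 in dendritic cells, was called lower, at 10 reads against 50 (-2.13, -3.33 to -1.19). Leukocyte markers were lower in the same library in 6 of 10 measured genes, higher in 2 and summed to 1163 against 15100.4 normalised counts, with Ptprc, which encodes CD45, the most abundant (-4.82). The other lower ones were the lymphocyte genes Cd3e, Cd3g, Gzma, Gzmb and Nkg7. The 2 higher ones were the myeloid genes Lyz2 (1.03) and Adgre1 (1.08). Cd68 (-0.35), also myeloid, and Cd79a (-0.82) were not called. The part of leukocytes in the Dcstamp value was not tested. Without genes under a mean of 50, Dcstamp was left out and 0 partners were called lower.

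**Figure D4:**
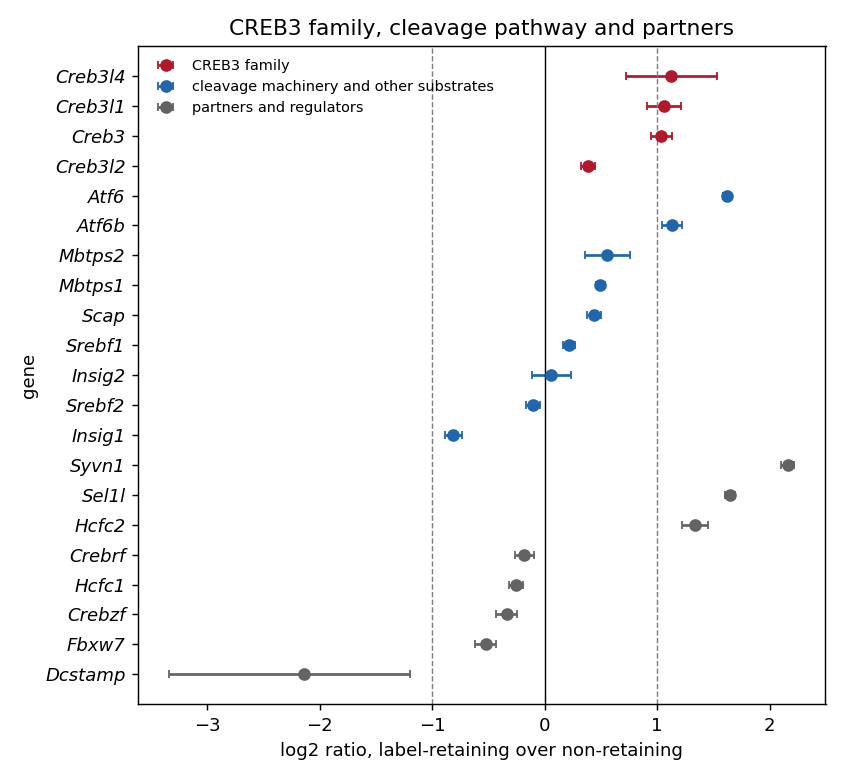
Log2 ratio (label-retaining over non-retaining) with its 95% counting interval for the CREB3 family (red), the cleavage machinery and its other substrates (blue) and the partners and regulators (grey), with dashed lines at 2-fold. The points of Atf6, Atf6b, Syvn1, Sel1l and Hcfc2 lie to the right of those of the family, and Dcstamp lies farthest to the left.

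Genes listed as targets of Creb3, Creb3l1 or Creb3l2 were above equality in 9 of 11 cases. The rule called 6 of the 11 measured higher and 0 lower, beside 14.5% and 19.4% of all measured genes, and their median was 1.06. Under the total-read scaling 4 were higher and 0 lower, beside 11.3% and 23.1%. Herpud1, a Creb3 target of the degradation pathway, had 66528 against 15169 normalised counts (2.13, 2.11 to 2.16). Sec24d and Sec23a, cargo coat subunits tied to Creb3l2 or Creb3l1, were at 1.92 (1.87 to 1.97) and 1.65 (1.56 to 1.73). Hspa5, the chaperone BiP and the most abundant gene of the list, was at 1.40. Several of these genes are also targets of ATF6 or XBP1, so that the list is not particular to the CREB3 family.

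Other listed genes were nearer to equality or lower. Arf4, the Golgi small GTPase tied to Creb3, was at 0.33 (0.29 to 0.36) and Sec24c at 0.83. The cell cycle inhibitor gene Cdkn1a was at -0.23 and the transcription factor gene Sox9 at -0.48. Sox9 was counted in this list, but whether it acts below or above Creb3l2 was not tested. Under the keratin scaling 2 listed genes were higher (Herpud1 and Sec24d) and 1 lower (Sox9), beside 5.59% and 39.9% of all measured genes. Of 8 listed targets of Creb3l3, genes best known from the liver, 1 had a row: Hamp, the iron hormone hepcidin, with 31 reads against 11 (1.58, 0.60 to 2.77).

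Collagen I, whose genes Creb3l1 activates in bone, was measured beside it. Col1a1 had 1958 against 937 normalised counts (1.06, 0.95 to 1.17) and Col1a2 3035 against 1579 (0.94, 0.86 to 1.03). The ratio of Col1a1 was the nearest of 61 pathway genes to that of Creb3l1 and also to that of Creb3. Among the other fibroblast markers, Col3a1 (0.97) and Lum (1.53), both named after their values were seen, were also above equality, and 6 were called lower. Of the 10 measured fibroblast markers, which include both collagen genes, the size rule called 2 higher and 6 lower, and the median was -3.76. Their summed level was 15999 against 94106 normalised counts. The difference in the sum rested on decorin (Dcn, -4.09), with 4920 against 83927, since the 9 others summed to 11080 against 10179. Decorin was not the only marker far lower. Pdgfra (-4.68), Thy1 (-4.09), Fbln1 (-3.93), Pdgfrb (-3.82) and Dpt (-3.70) were the other lower ones, with smaller counts. Pdgfra, the most abundant of these, had 66 against 1703. Whether fibroblast RNA in either sort had a part in the Creb3l1 or collagen values was not tested.

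With 1 ratio per gene, a like ratio is a weak measure of likeness. The counting interval of Creb3 held the ratios of 601 measured genes (3.50%, itself included), that of Creb3l1 956 (5.56%), that of Creb3l2 880 (5.12%) and that of Creb3l4 2378 (13.8%). By nearness of ratio, Creb3 was followed by Edem1, a degradation lectin gene (1.10), and Msmb, a secreted prostate protein gene (0.96). Creb3l1 and Creb3l4 both had Edem1 and Atf6b among their 3 nearest. Creb3l2 had Scap (0.44), Arf4 (0.33) and Mbtps1 (0.49), that is, its nearest listed genes were 2 of the cleavage pathway and 1 reported target of Creb3.

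Nuclear CREB and ATF factors, which lack a membrane anchor, lay on both sides of equality. By the size rule 0 of 10 were higher and 1 was lower; the median was -0.15, with a range from -1.23 to 0.91. In so short a list these counts are near the background of 14.5% higher and 19.4% lower. The lower one was Crem, a cyclic AMP responsive factor, with 1272 against 2976 normalised counts (-1.23, -1.32 to -1.13). Atf3, the most abundant, had 95612 against 93047 (0.04). Under the keratin scaling 0 were higher and 5 lower, where 39.9% of all measured genes were lower.

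The unfolded protein response list was higher beside the CREB3 family. The size rule called 8 of 11 measured genes higher and 0 lower, beside 14.5% and 19.4% of all measured genes, and the median was 1.33. Eif2ak3, which encodes the sensor PERK, had 13645 against 3208 normalised counts (log2 ratio 2.09). Sdf2l1 (1.81), the disulfide isomerase gene Pdia4 (1.54) and the co-chaperone gene Dnajc3 (1.37) were also called. The most abundant gene, the lectin chaperone Calr, was at 0.85 and not called. Ddit3 (0.78) and Ppp1r15a (0.08) were not called either. Under the keratin scaling 2 were higher (Eif2ak3 and Sdf2l1) and 0 lower, beside 5.59% and 39.9% of all measured genes.

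**Figure D5:**
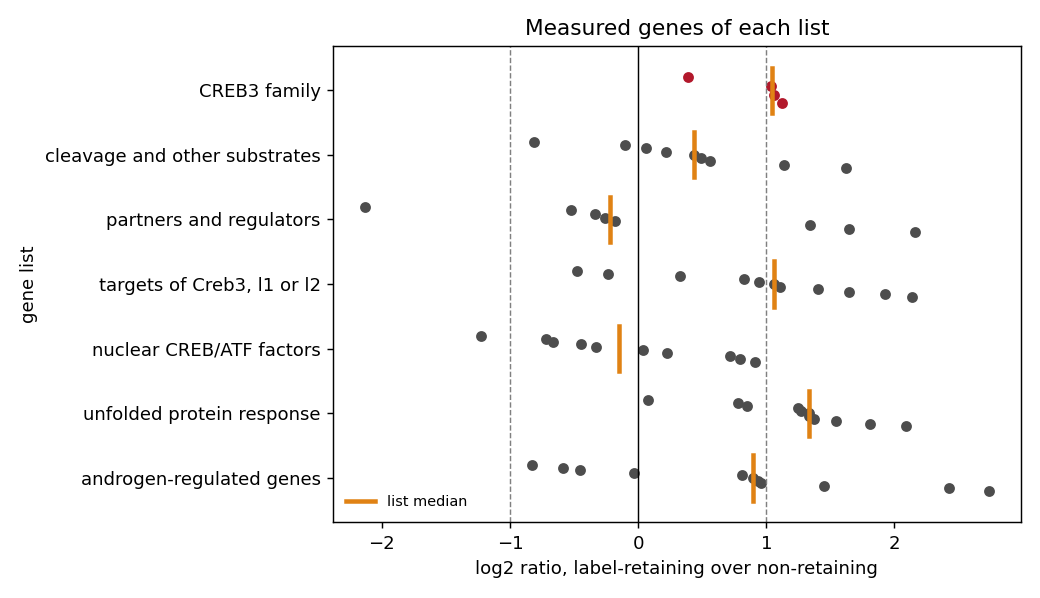
Log2 ratio (label-retaining over non-retaining) of each measured gene of 7 lists, 1 point per gene, with the list median as an orange bar, a solid line at equality and dashed lines at 2-fold. The CREB3 family (red) has a median of 1.05, near the 1.06 of the reported targets and below the 1.33 of the unfolded protein response list, while the nuclear CREB and ATF factors have a median of -0.15.

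Androgen-regulated genes, the setting in which Creb3l4 was described, were above equality in 7 of 11 cases. The size rule called 3 of the 11 higher and 0 lower, beside 14.5% and 19.4% of all measured genes, and the median was 0.89. The protease gene Tmprss2 was at 2.74 (2.68 to 2.80), the transglutaminase gene Tgm4 at 2.43 and probasin (Pbsn) at 1.45. Under the total-read scaling 3 were higher and 1 lower, beside 11.3% and 23.1% of all measured genes, and under the keratin scaling 2 and 3, beside 5.59% and 39.9%.

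Cell type markers differed between the libraries beside all of these values. Luminal markers, present in both sorts, were higher in 5 of 10 genes and lower in 0, and summed to 822549 against 332873 normalised counts, with Pbsn the most abundant. Basal markers were lower in 10 of 10 and summed to 36809 against 332535, with Krt17 (-4.42) the most abundant. In the non-retaining library the basal sum was thus close to the luminal sum of 332873, although that library was sorted as luminal. Smooth muscle markers were lower in 9 of 9 (1920 against 24210, led by Tpm2 at -4.53), plasma cell markers in 4 of 5 measured (8738 against 50500, with 1 higher, led by Sdc1 at -3.92) and endothelial markers in 6 of 8 (729 against 2631, led by Lyve1 at -3.85). The plasma cell difference rested mostly on Sdc1, with 2914 against 44151 normalised counts. Prdm1 had 166 against 5362 reads, Irf4 19 against 101 and Jchain 6 against 31. Derl3 was the higher one (2.06), and Mzb1 and Tnfrsf17 had no row. Seminal vesicle secretion genes were higher in 6 of 6 (83919 against 765, led by Svs2 at 6.97), and Svs3a and Svs6 had 0 reads in the non-retaining library. Neuroendocrine markers were higher in 2 and lower in 1 of 4 measured (399 against 233, led by Chga at 0.61). The part of these cell types in the ratios of the CREB3 family was not tested.

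Promoter sequence was read for 4 members from the RefSeq table on GRCm38.p6, as the 250 bases before the start nearest to the GENCODE start. The windows of Creb3l4 (chr3:90243513-90243762) and Creb3l2 (chr6:37442149-37442398), both on the minus strand, are printed to set a member that was called higher beside the one that was not. Capitals mark matches, on either strand, to the motifs searched: TGACG, the core of cyclic AMP and unfolded protein response elements, CCACG and CCAAT, the parts of the endoplasmic reticulum stress element, and AGAACA, an androgen response half-site.
Creb3l4: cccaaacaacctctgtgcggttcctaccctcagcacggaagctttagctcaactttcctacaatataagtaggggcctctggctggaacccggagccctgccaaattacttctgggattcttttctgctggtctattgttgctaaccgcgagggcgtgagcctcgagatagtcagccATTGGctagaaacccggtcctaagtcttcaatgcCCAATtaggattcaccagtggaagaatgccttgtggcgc
Creb3l2: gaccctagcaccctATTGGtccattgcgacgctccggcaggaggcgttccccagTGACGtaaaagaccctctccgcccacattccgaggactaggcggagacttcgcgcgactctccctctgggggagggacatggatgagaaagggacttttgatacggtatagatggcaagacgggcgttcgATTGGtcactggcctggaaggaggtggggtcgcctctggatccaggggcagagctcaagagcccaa

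The Creb3l4 window held CCAAT 2 times, once on each strand, at 73 to 69 and 39 to 35 bases before the start, and none of the other motifs. The Creb3l2 window held CCAAT 2 times on the minus strand, at 236 to 232 and 66 to 62 bases, and TGACG 1 time at 196 to 192 bases. The Creb3 window (chr4:43562408-43562657, plus strand) held CCACG 3 times, at 153 to 149, 105 to 101 and 49 to 45 bases. That window lies downstream of the GENCODE start of Creb3, since the RefSeq start used was 326 bases farther on. The Creb3l3 window held AGAACA 2 times. The full elements TGACGTGG and TGACGTCA, both of which contain TGACG, were in 0 of the 4 windows. Of 32851 windows of the same length in the table, 33.8% held CCAAT, 28.3% CCACG, 17.8% TGACG, 16.1% AGAACA, 0.563% TGACGTGG and 1.55% TGACGTCA. These matches describe letters in a window, and no binding was measured.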

How the data were processed

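RNA was sequenced from 1 label-retaining and 1 non-retaining luminal library, grouped by their titles. The deposited table holds a normalised signal: the authors divided each library's gene read counts by a size factor, as the values show (100% are whole multiples of 1 step within 1e-06). The steps gave size factors of 1.00 and 1.10 and totals of 50689229 and 48334265 reads. Per the submitters' processing notes, the tools were DESeq 1.16.0, HTSeq 0.6.0, TopHat2 2.0.10, CASAVA 1.8.2 and Bowtie2 2.1.0, and the build was mm10, with no roles stated. The sources used here give neither the annotation nor the strand setting.

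The log2 ratio used a pseudocount of 0.5, with an exact Clopper-Pearson 95% interval from the recovered reads (Python 3.11.15, SciPy 1.17.1). Levels have exact Poisson intervals. Both cover counting error only. TMM factors came from edgeR 4.0.16. Symbols (18634 of 18724 rows), positions and exon lengths came from GENCODE M21. The calculation was tested on simulated counts.

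The members and lists were chosen with earlier results of these data known. Named were all members, cleavage genes and partners, from each other pathway list the most abundant gene and up to 4 called genes with the interval bound farthest from equality, the 3 listed genes nearest in ratio to each member, and the most abundant gene of marker lists. Where the report names other genes, it names them to complete a list, and they were chosen after their values were seen. The deposited scaling was tried against 4 others, with another pseudocount and other filters.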

Additional observations from a re-analysis of the deposited data

How the results depend on the processing

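All comparisons rest on 1 library per group, so no result has a replicate check, and at 155 and 78 reads the ratio of Creb3l4 is known only to about 0.41 on the log2 scale either way. No paired analysis was possible because each group holds 1 library and the labels give no replicate numbers. With a pseudocount of 5, with TMM or median-of-ratios factors, and without the filter on low counts, the 4 members' ratios stayed within their counting intervals and 3 members were called higher.

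Scaling to total reads gave 0.83 for Creb3, 0.86 for Creb3l1 and 0.18 for Creb3l2, with 0 members higher. The cleavage list then had 1 higher and 1 lower, and the androgen list 1 lower, and the reported targets had 4 higher. Of all measured genes, 11.3% were then higher and 23.1% lower. Scaling on Krt8 and Krt18 gave 0.27 for Creb3, 0.30 for Creb3l1, 0.36 for Creb3l4 and -0.38 for Creb3l2, which changed sign, with 0 members higher. The lists then had 0 higher and 1 lower (cleavage), 1 and 4 (partners), 2 and 1 (reported targets), 0 and 5 (nuclear factors), 2 and 0 (unfolded protein response) and 2 and 3 (androgen). Beside these counts, 5.59% of all measured genes were higher and 39.9% lower. Hamp was no longer called. These moves follow from the shift of every ratio. With a minimum mean of 50, 0 partners were lower and 0 Creb3l3 targets higher, because Dcstamp and Hamp were not tested.

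Without length correction the shares of the family in the label-retaining and the non-retaining library were 32.7% and 25.2% for Creb3, 12.6% and 9.58% for Creb3l1, 52.8% and 63.8% for Creb3l2, and 1.90% and 1.38% for Creb3l4, so that Creb3l2, the longest, came first. With the longest coding transcript they were 56.2% and 49.7% for Creb3, 15.7% and 13.6% for Creb3l1, and 24.1% and 33.4% for Creb3l2.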
